A study of Mus musculus with 9 samples.

Results

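The GADD45 genes, Gadd45a, Gadd45b and Gadd45g, were followed in 3T3 cells, a line of immortalised fibroblasts from mouse embryos, within the first hour of an inflammatory stimulus and after depletion of a chromatin remodeller. The genes were chosen by name, as the rows of the array table whose annotation gives 1 of these symbols alone, with the brightest row to be used where a symbol had several. Each symbol had 1 row (transcript clusters 10545130, 10364950 and 10405211), so the signal level, the only measured value in the rule, decided nothing, and these are 3 of 19698 genes tested. The family was picked with the calls of Gadd45b, and that of Gadd45a in the paired fit, already known, so those calls are no independent support.

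The 9 Affymetrix mouse Gene 1.0 ST arrays form 3 groups of 3 replicates, numbered 1 to 3. Replicates were made on different days, and no source used here says that equal numbers share a day. Control cells were left unstimulated or received TNF-α, the cytokine tumour necrosis factor (5 ng per ml, 1 h). Cells depleted of BAF received the same treatment. The knockdown cells stably express, from a U6 promoter in a retroviral vector, 1 short hairpin RNA against a sequence shared by Brg1 and Brm, the ATPases of the BAF nucleosome remodelling complex, and were sorted as a population for high expression of a co-expressed green fluorescent protein. The labels and methods do not say whether control cells carried a vector, and unstimulated knockdown cells were not analysed here. All cells were subconfluent 3T3 cultures. Levels are RMA log2 signals, where 1 unit is a doubling, and are given as mean ± SD over n = 3 arrays. Differences carry the standard error of limma.

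GADD45 proteins are small, acidic, mainly nuclear proteins with no known enzymatic activity of their own, which act by binding others. They bind and activate the kinase MEKK4 (gene Map3k4) upstream of p38 and JNK, contact the replication clamp PCNA and the mitotic kinase CDK1 in growth arrest, and have been tied to DNA repair and active DNA demethylation. Gadd45a is a classical p53 target induced by DNA damage, Gadd45b is an early gene of TNF and NF-kB signalling whose product restrains JNK activation, and Gadd45g responds to cytokines and differentiation signals.

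The stretch of 250 bases just upstream of each transcription start is shown because the genes of this family lay on different sides of 0 after TNF. The sequences are those of RefSeq on build GRCm38.p6, where all 3 genes were found, written 5′ to 3′ along the gene. There Gadd45a (gene ID 13197) lies on chromosome 6 from 67035096 to 67037407, Gadd45b (17873) on chromosome 10 from 80930091 to 80932204 and Gadd45g (23882) on chromosome 13 from 51846675 to 51848475. The stretches cover chr6:67037408-67037657 on the minus strand for Gadd45a, chr10:80929841-80930090 on the plus strand for Gadd45b and chr13:51846425-51846674 on the plus strand for Gadd45g. Capitals mark matches to the searched motifs.
Gadd45a: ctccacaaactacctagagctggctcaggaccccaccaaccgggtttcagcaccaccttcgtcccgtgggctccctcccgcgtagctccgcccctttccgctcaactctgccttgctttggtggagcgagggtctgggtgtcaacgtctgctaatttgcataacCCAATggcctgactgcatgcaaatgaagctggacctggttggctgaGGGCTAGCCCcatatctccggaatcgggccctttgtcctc
Gadd45b: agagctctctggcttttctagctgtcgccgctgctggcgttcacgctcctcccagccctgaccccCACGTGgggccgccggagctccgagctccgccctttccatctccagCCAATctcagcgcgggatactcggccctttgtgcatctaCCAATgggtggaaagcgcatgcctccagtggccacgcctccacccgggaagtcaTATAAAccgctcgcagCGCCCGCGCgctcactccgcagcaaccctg
Gadd45g: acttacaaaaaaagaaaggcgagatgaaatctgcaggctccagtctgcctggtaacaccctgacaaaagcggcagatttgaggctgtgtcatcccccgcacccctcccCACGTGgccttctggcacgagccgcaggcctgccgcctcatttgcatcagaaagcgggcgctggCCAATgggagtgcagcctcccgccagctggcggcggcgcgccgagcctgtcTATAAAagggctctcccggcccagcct

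Every one of these stretches holds the CCAAT box (CCAAT, found in 33.8% of 32851 promoters of this length), starting at -86 in Gadd45a, at -139 and -100 in Gadd45b and at -78 in Gadd45g. Gadd45b and Gadd45g also hold a TATA box (TATAAA, 12.4%), at -46 and -27, and an E-box (CACGTG, 6.02%), at -185 and -142, neither of which was found in Gadd45a. Gadd45b alone of the family holds the Egr motif (GCGNGGGCG, 4.7%), at -30 on the opposite strand, and Gadd45a alone the p53 decamer (7.13%), at -40. The kB motif of NF-kB (7.25%), the AP-1 motif (TGANTCA, 6.75%), the cyclic AMP element (TGACGTCA, 1.55%), the CArG box (1.47%) and the FOXO motif (GTAAACA, 3.17%) have no match in any of these windows. Both strands were searched and no match overlaps another. The upstream stretches are 59.2% G and C in Gadd45a, 65.2% in Gadd45b and 62.0% in Gadd45g, against a median of 52.4%. A match is a run of letters, not a bound site, and its absence from a window of this length says nothing about the factor.

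**Figure D1:**
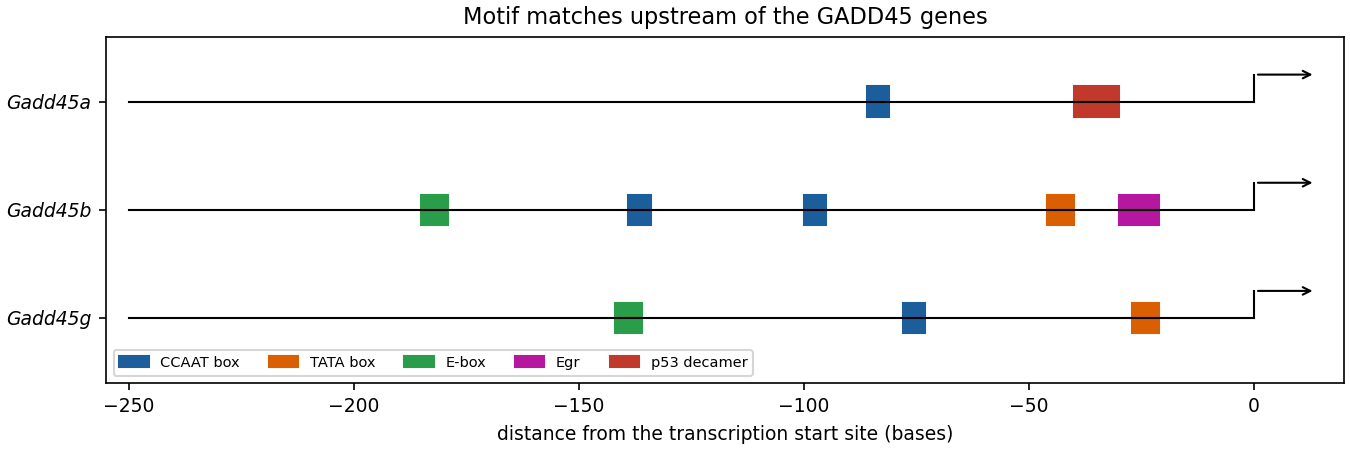
Motif matches in the 250 bases upstream of each gene, by distance from the transcription start site (x axis, bases), with 1 line per gene and a coloured box per match. The TATA box lies at -46 in Gadd45b and at -27 in Gadd45g, and Gadd45a has a CCAAT box and a p53 decamer only.

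The knockdown was checked first. Smarca4, which encodes Brg1, read 11.62, 11.53 and 11.56 on the TNF-treated control arrays and 10.50, 10.64 and 10.25 on the knockdown arrays (arrays 1, 2 and 3). The knockdown arrays all lay below the controls, by a difference of -1.11 ± 0.09. Smarca2, which encodes Brm, read 9.51, 9.81 and 9.39 on the TNF-treated control arrays and 9.12, 9.38 and 9.12 on the knockdown arrays. Its knockdown arrays, too, all lay below the controls, though array 2 only narrowly. The difference of -0.36 ± 0.20 (95% interval -0.82 to 0.09) did not pass the test (adjusted p = 0.734). Pairing arrays of the same number gave an interval of -0.60 to -0.13, and limma did not call it there either (adjusted p = 0.129). The paper reports a loss of both transcripts in knockdown cells by quantitative RT-PCR. Of 8 fibroblast markers, 7 lay above the median level of all genes, Thy1 being the exception. So did 1 of 8 leukocyte, 1 of 5 epithelial and 0 of 5 endothelial markers. Limma called 0 of these markers in either comparison. Of all genes it called 0.137% higher and 0% lower with TNF, and 0.0355% higher and 0.102% lower with the knockdown. The largest knockdown differences among fibroblast markers were those of S100a4 (-1.18, adjusted p = 0.157) and Pdgfra (-0.57, 0.63). Of the 8 leukocyte markers, 4 lay below the first quartile on all 9 arrays (Ptprc, Adgre1, Itgam and Cd79a), and Cd68, Csf1r, Cd3e and Fcgr1 on 0, with Cd68 the one above the median.

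After 1 h of TNF the members lay on both sides of their unstimulated levels. Gadd45a and Gadd45b were higher and Gadd45g was lower on every treated control array than on any unstimulated one. Only Gadd45b passed the test over all genes (0.137% of genes were called higher and 0% lower). Gadd45a passed it in the fit that pairs arrays of the same number (0.366% higher, 0.0305% lower), and Gadd45g in neither. Gadd45a and Gadd45b met the thresholds that the methods set for induction (a difference over 0.35 and the methods' t-test, run here without pairing), as 0.543% of genes did. Gadd45g met the same thresholds turned downward, as 0.0406% did.

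Gadd45b, the member tied to NF-kB, read 11.44, 11.46 and 11.44 on the unstimulated arrays and 11.95, 11.93 and 11.94 on the TNF-treated control arrays. The groups lay far apart and each was very tight. The mean rose from 11.45 ± 0.01 to 11.94 ± 0.01, a 1.41-fold rise (difference 0.50 ± 0.04, adjusted p = 0.00297), and 124 genes had a larger rise. Arrays of the same number differed by 0.51, 0.47 and 0.50. The call held without any single array (adjusted p = 0.00631 to 0.0279), but in the paired fit it was lost without all arrays numbered 1 (0.436) or 3 (0.135).

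Gadd45a, the DNA damage and p53 target, read 9.53, 9.20 and 9.25 on the unstimulated arrays and 9.98, 9.98 and 9.82 on the TNF-treated control arrays. Unstimulated array 1 lay nearest to the treated ones and the groups did not overlap, as was so for 3.19% of genes in this direction. The mean stood at 9.33 ± 0.18 and then at 9.93 ± 0.09, 1.52-fold higher (difference 0.60 ± 0.10). This was a larger difference than that of Gadd45b on arrays that scattered more. It did not pass the test (adjusted p = 0.112, or 0.017 in the paired fit). Without all arrays of any 1 number the paired call was lost (0.0724 to 0.556). Same-number arrays differed by 0.46, 0.78 and 0.57.

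Gadd45g, the member linked to cytokine and differentiation signals, read 10.23, 10.42 and 10.18 on the unstimulated arrays. On the TNF-treated control arrays it read 9.81, 9.52 and 9.71, so no treated array reached the lowest unstimulated one, a separation seen downward in 2.78% of genes. The mean stood at 10.28 ± 0.13 and then at 9.68 ± 0.15, 1.51-fold lower (difference -0.60 ± 0.11, 95% interval -0.84 to -0.35). Of the 19698 genes tested, 3 had a lower difference after TNF. The difference did not pass the test (adjusted p = 0.171, or 0.0991 in the paired fit), in a comparison in which limma called 0 genes lower, 241 (1.22%) fell below 0 at an unadjusted p under 0.05, and 8, with Gadd45g among them, met the induction thresholds turned downward. Same-number arrays differed by -0.43, -0.90 and -0.46. RNA came from whole cultures, so fewer cells with a transcript and less of it per cell cannot be told apart.

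**Figure D2:**
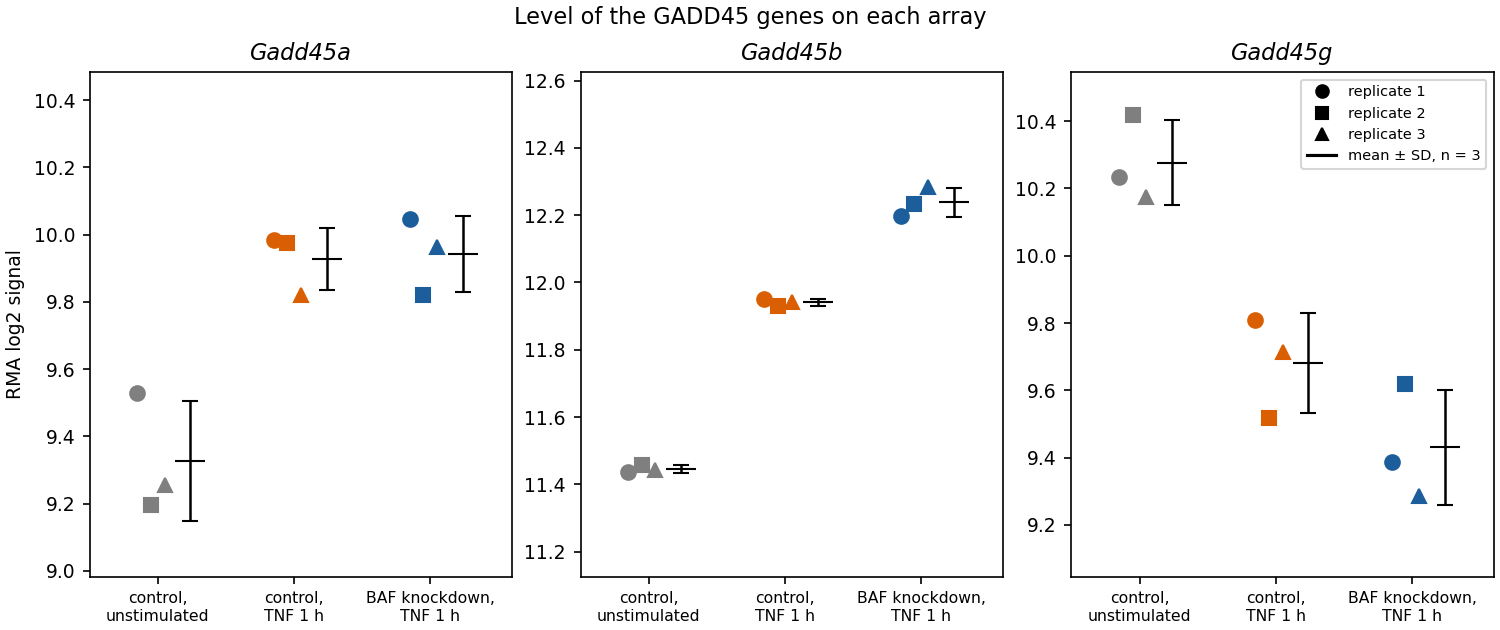
RMA log2 signal (y axis, each panel spanning 1.5 units around the mean of its gene and not starting at 0) of each GADD45 gene in the 3 groups, with a point for each array (shapes mark replicate numbers) and bars at mean ± SD (n = 3). Gadd45b steps up from 11.45 to 11.94 to 12.24 with little scatter, Gadd45a has means of 9.33, 9.93 and 9.94, and Gadd45g of 10.28, 9.68 and 9.43.

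With BAF knockdown, only Gadd45b passed the test. Gadd45b was higher in TNF-treated knockdown cells than in TNF-treated control cells. Gadd45a stood at the same mean within 0.02, and Gadd45g was lower without passing the test. Without unstimulated knockdown cells, a different level before TNF and a different response to it cannot be told apart. Limma called 0.0355% of genes higher and 0.102% lower in this comparison. The methods set a difference over 0.3, with no test, for genes inhibited by BAF or dependent on it. Upward 1.87% and downward 3.27% of genes passed it, and 0 of the 3 members did.

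Gadd45b read 12.20, 12.23 and 12.28 on the knockdown arrays, all above the highest TNF-treated control array at 11.95. Such a separation upward was seen in 4.63% of genes. The mean rose to 12.24 ± 0.04, 1.23-fold above the treated controls (difference 0.30 ± 0.04, adjusted p = 0.0454), and knockdown array 3 was the highest. The difference of 0.298 lay just under that threshold of 0.3. The call is a narrow one. It held without knockdown array 2 (0.046) and in the paired fit (0.0158), and was lost when any other single array was left out, at adjusted p = 0.0806 to 0.216, while the difference stayed between 0.28 and 0.32. Same-number arrays differed by 0.25, 0.30 and 0.34.

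Gadd45a read 10.05, 9.82 and 9.96 on the knockdown arrays, of which array 1 lay above all TNF-treated control arrays and the others within their range. The mean of 9.94 ± 0.11 differed by 0.02 ± 0.10 (95% interval -0.21 to 0.24, adjusted p = 0.989) and the groups overlapped. Knockdown array 2 and treated control array 3 hold exactly the same value.

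Gadd45g read 9.39, 9.62 and 9.28 on the knockdown arrays, of which array 2 lay among the treated controls and the others below all of them. The groups overlapped, and the mean of 9.43 ± 0.17 differed by -0.25 ± 0.11 (95% interval -0.50 to -0.00413, adjusted p = 0.581), a comparison in which 5.47% of genes had groups that lay apart downward. Same-number arrays differed by -0.42, 0.10 and -0.43, so number 2 went against the other numbers. Knockdown array 2 is also the one with the least loss of Smarca4. The paired fit of limma on all arrays did not call Gadd45g (adjusted p = 0.364). Without all arrays numbered 2, the number that went the other way, the paired fit called Gadd45g lower (-0.43, adjusted p = 0.0244). That fit holds fewer arrays, leaves out the opposing number and is no support for a fall. The share of all genes that it called was not counted. Whether the smaller loss of Brg1 has a part in the direction of number 2 was not tested.

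Set against unstimulated control cells, TNF-treated knockdown cells differed in every member, and limma called all 3 (0.518% of genes were called higher and 0.599% lower, or 1.98% and 3.36% in the paired fit). The groups lay apart for all 3, as they did upward in 7.01% and downward in 7% of genes. Gadd45b was 1.73-fold higher (0.79 ± 0.04, adjusted p = 0.000204), Gadd45a 1.53-fold higher (0.62 ± 0.10, 0.0265) and Gadd45g 1.80-fold lower (-0.85 ± 0.11, 0.0132). This comparison joins the TNF treatment and the knockdown, whose parts cannot be told apart in it, and it shares its arrays with the others. Same-number arrays differed by 0.76, 0.78 and 0.84 for Gadd45b, by 0.52, 0.62 and 0.71 for Gadd45a and by -0.85, -0.80 and -0.89 for Gadd45g. For each number, all members moved in the direction of their mean. The call of Gadd45a was lost without unstimulated array 2 or 3, treated control array 1 or knockdown array 1 or 3 (adjusted p = 0.0584 to 0.118), and that of Gadd45g without unstimulated array 1 or knockdown array 1 or 3 (0.0557 to 0.0788).

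**Figure D3:**
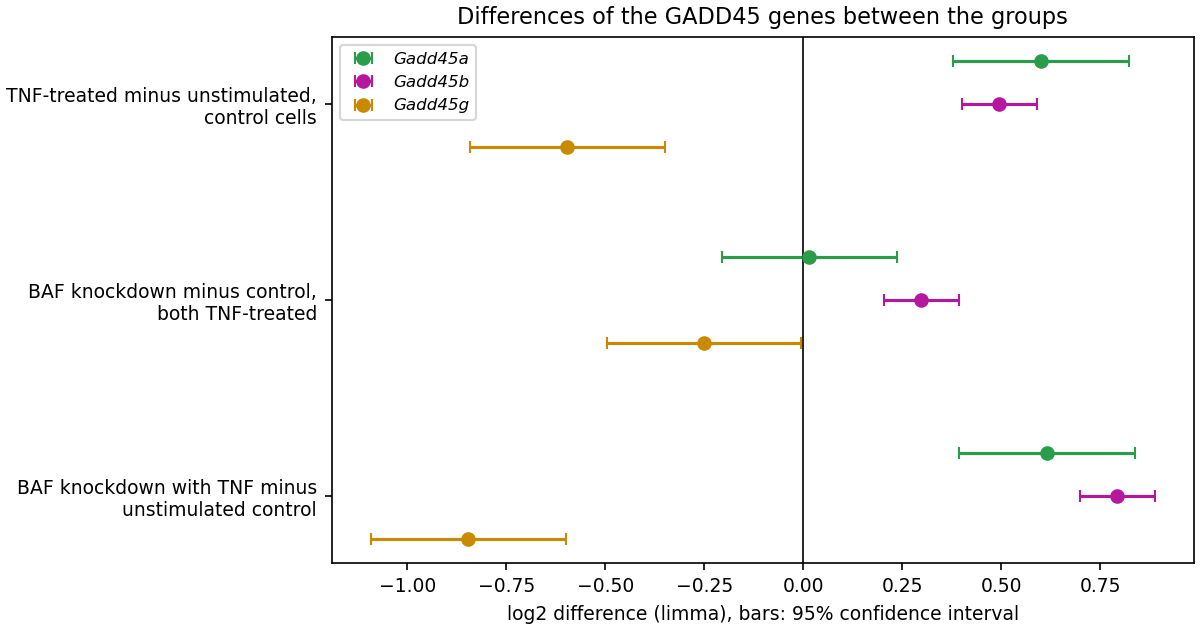
Log2 difference (x axis) of each GADD45 gene in the 3 comparisons (y axis), with points at the limma estimate and bars of the 95% confidence interval (n = 3 arrays per group). After TNF, Gadd45a (0.60) and Gadd45b (0.50) lie right of 0 and Gadd45g (-0.60) left of it, and with the knockdown Gadd45a lies at 0.02.

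The order of the group means was not the same from gene to gene. For Gadd45b unstimulated cells were lowest, treated controls came next and knockdown cells were highest, with no overlap between neighbours. For Gadd45a the unstimulated group was lowest and the TNF-treated groups did not differ beyond their spread. For Gadd45g the unstimulated group was highest and the TNF-treated groups overlapped.

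Whether one member changed more than another was tested within arrays by an exact permutation test, two-sided, in 6 comparisons of 3 against 3 arrays, where the smallest possible p is 0.1. The 95% intervals do not come from this test. They come from a limma fit of the same within-array differences beside all genes, and are not adjusted. An interval that leaves out 0 is not read as a passed test. The change with TNF of Gadd45b exceeded that of Gadd45g by 1.09 (95% interval 0.84 to 1.34), and that of Gadd45a exceeded it by 1.2 (0.81 to 1.58), each at p = 0.1 by the exact test, or 0.15 adjusted over the 6. Gadd45b and Gadd45a differed in their change with TNF by -0.11 (-0.34 to 0.13, exact p = 0.4). With the knockdown, the change of Gadd45b exceeded that of Gadd45a by 0.28 (0.05 to 0.52, exact p = 0.1, adjusted 0.15) and that of Gadd45g by 0.55 (0.30 to 0.80, the same p), and Gadd45a exceeded Gadd45g by 0.27 (-0.12 to 0.65, exact p = 0.2). None of these exact tests can pass 0.05 at this number of arrays.

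The members also differed in how closely replicate arrays came together. The residual SD within groups was 0.027 log2 units for Gadd45b, 0.133 for Gadd45a and 0.15 for Gadd45g, against a median of 0.092 over all genes. That of Gadd45b was lower than in all but 2.11% of genes, whereas those of Gadd45a and Gadd45g stood at the 74.9 and 80.9 percentiles. Differences of nearly the same size with TNF came with standard errors of 0.04, 0.10 and 0.11, which limma draws toward the spread of all genes. All 3 genes lay above the median signal of the genes tested on every array (7.97 to 8.03). By mean signal, Gadd45b stood at the 95.6 percentile, Gadd45a at 72.5 and Gadd45g at 73.5. Whether the brighter signal has a part in the smaller spread was not tested.

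**Figure D4:**
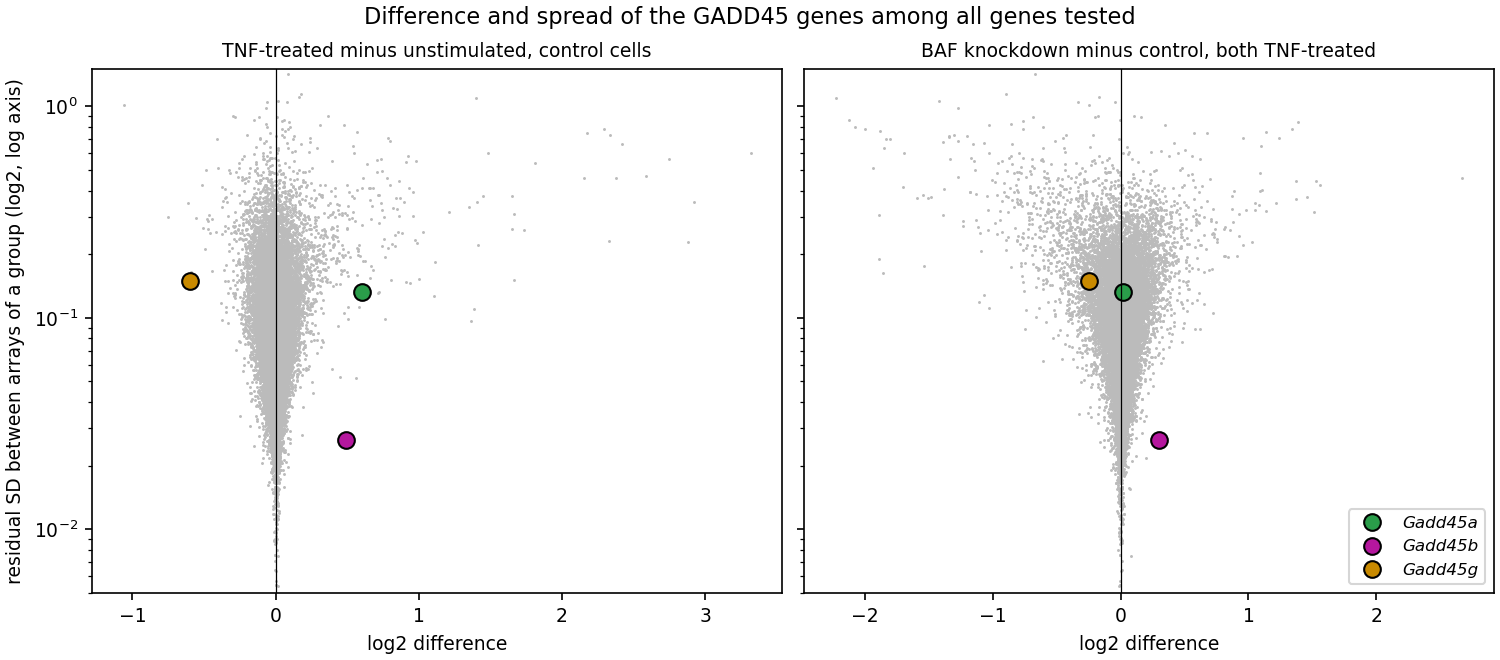
Log2 difference (x axis) against the residual SD between arrays of a group (y axis, log axis) for the genes tested with an SD above 0, grey, and the GADD45 genes, coloured, with TNF (left) and with BAF knockdown (right). Gadd45b sits at an SD of 0.027, below most genes with a difference of its size, while Gadd45a (0.133) and Gadd45g (0.15) sit in the upper part of the cloud.

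The partners of GADD45 proteins did not pass the test in either comparison. Of 11 measured stress kinases and their activators (MEKK4, the p38 and JNK kinases and the MAP kinase kinases above them), limma called 0 after TNF, without or with pairing, and 2 lay above 0 at an unadjusted p under 0.05 (1.85% of all genes), the p38 gene Mapk11 (0.23 ± 0.10) and the JNK gene Mapk10 (0.16 ± 0.07). Map3k4, the kinase that GADD45 proteins activate, differed by -0.01 ± 0.08 with TNF and by 0.05 ± 0.08 with the knockdown. With the knockdown 0 were called and 0 had an unadjusted p under 0.05 (3.69% of all genes upward, 4.75% downward), and the largest differences were those of the p38 activators Map2k6 (-0.24 ± 0.12) and Map2k3 (-0.20 ± 0.14). The median difference of this list was 0.05 with TNF and -0.06 with the knockdown, against 0.00 and 0.01 over all genes.

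Of 7 measured cell cycle and nuclear partners, limma called 0 in either comparison, without or with pairing, and 0 had an unadjusted p under 0.05. The largest differences were those of the phosphatase Cdc25c (-0.10 ± 0.20 with TNF, 0.28 ± 0.20 with the knockdown) and of the mitotic kinase Aurka (-0.10 ± 0.15 and 0.11 ± 0.15). The median difference was -0.04 with TNF and 0.06 with the knockdown.

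Of 12 measured genes of DNA repair and demethylation, limma called 0 after TNF, and 1 lay below 0 at an unadjusted p under 0.05, the methylcytosine dioxygenase Tet3 (-0.17 ± 0.06). Its relative Tet1 differed by -0.17 ± 0.22 with TNF. With the knockdown 0 were called, and the paired fit called Tet1 lower (-0.58 ± 0.22, paired adjusted p = 0.0158) and the cytidine deaminase Apobec1 higher (0.34 ± 0.13, paired 0.0457), against 2.33% of genes called lower and 0.98% higher by that fit. Without all arrays numbered 1 or 3 the paired call of Tet1 was lost (0.292 and 0.206), and that of Apobec1 was lost without any 1 number (0.0914 to 0.282). These were also those with an unadjusted p under 0.05 (3.69% of all genes upward, 4.75% downward). The median difference of the list was -0.03 with TNF and 0.00 with the knockdown.

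Of 19 measured transcriptional regulators of GADD45 genes, limma called 0 in either comparison. The paired fit called Egr1, an immediate early factor, higher after TNF (2.15 ± 0.31, adjusted p = 0.0587, paired 0.00839, against 0.366% of genes), a call lost without number 1 (0.661) or 3 (0.0673), while the NF-kB subunit Rel differed by 0.83 ± 0.17 (0.287, paired 0.108). With the knockdown the paired fit called Foxo1, a stress factor, higher (0.91 ± 0.14, adjusted p = 0.0599, paired 0.00149, against 0.98% of genes), a call lost without number 1 (0.122), and Egr1 differed by -0.39 ± 0.31. At an unadjusted p under 0.05, 4 lay above 0 after TNF (1.85% of all genes), Egr1, Rel, Myc (0.25 ± 0.07) and the NF-kB subunit Rela (0.21 ± 0.06), and Foxo1 did with the knockdown (3.69%). The median difference was 0.02 with TNF and 0.00 with the knockdown.

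Other p53 targets and stress genes give the surroundings of Gadd45a. Of 25 measured p53 targets, limma called 0 in either comparison, and 5 lay above 0 after TNF at an unadjusted p under 0.05 (1.85% of all genes). These were the p53 inhibitor Mdm2 (0.43 ± 0.14), the kinase Plk2 (0.40 ± 0.15) and the 3 that pairing called higher (0.366%), the antiproliferative Btg2 (1.45 ± 0.26), the polo-like kinase Plk3 (0.93 ± 0.40) and the death receptor Fas (0.83 ± 0.15), at paired adjusted p = 0.0437, 0.018 and 0.017. The paired call of Plk3 was lost without any 1 number (0.0724 to 0.241), that of Btg2 without 1 or 3 (1 and 0.246) and that of Fas without 1 or 2 (0.706 and 0.115). Without treated control array 1 the difference of Plk3 was 0.61. With the knockdown 4 lay above 0 at an unadjusted p under 0.05 (3.69%), Sesn1 (0.30 ± 0.12), the death receptor Tnfrsf10b (0.30 ± 0.11), the DNA polymerase Polk (0.27 ± 0.10) and Ccng1 (0.17 ± 0.04), and 2 lay below (4.75%), Sesn2 and Dram1. Pairing called the autophagy gene Dram1 lower (-0.58 ± 0.20, paired 0.0118, against 2.33% of genes), a call lost without number 1 (0.205) or 3 (0.0806). Plk3 differed by 0.38 ± 0.40, and by 0.05 to 0.73 without single arrays. Of 14 growth arrest and stress genes, the stress factor Atf3 rose with TNF (0.72 ± 0.10, adjusted p = 0.0388, against 0.137% of genes called higher), Btg2 joined it with pairing, and Ppp1r15a, also known as Gadd34 (0.32 ± 0.06), had an unadjusted p under 0.05 as these did. The call of Atf3 was lost without any single unstimulated array, treated control array 1 or 3 or knockdown array 3 (0.0915 to 0.253). With the knockdown 0 were called, without or with pairing, and Btg1 (-0.16 ± 0.07) and Sesn2 lay below 0 at an unadjusted p under 0.05. The largest differences were those of Sesn2 (-0.36 ± 0.14) and of the CDK inhibitor Cdkn2b (-0.34 ± 0.22). The median difference was 0.02 with TNF and -0.01 with the knockdown in both lists.

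Of 12 measured survival genes driven by NF-kB, 3 rose with TNF (0.137% of all genes), 0 fell and 9 were not called. They were the NF-kB inhibitor Tnfaip3 (2.88 ± 0.16, adjusted p = 0.000329), the inhibitor of apoptosis Birc3 (1.00 ± 0.11, 0.0139) and Ier3 (0.94 ± 0.11, 0.0155), with a median difference of 0.22. The rise of Gadd45b was smaller than each of these and larger than the difference of any of the 9 not called. At an unadjusted p under 0.05, 6 of the 12 lay above 0 after TNF (1.85% of all genes). They were the called ones and Traf1 (0.40 ± 0.16), Bcl3 (0.32 ± 0.13) and Cflar (0.18 ± 0.07). Birc3 was not called without unstimulated array 1 or 3 or treated control array 1 or 3 (0.0728 to 0.0936), nor Ier3 without unstimulated array 1 or any treated control array (0.0646 to 0.109). With the knockdown limma called 0, without or with pairing. Those with an unadjusted p under 0.05 (3.69% of all genes upward, 4.75% downward) were Birc3 (0.29 ± 0.11, adjusted p = 0.481) and Tnfaip3 (-0.48 ± 0.16, 0.396), and the median difference was -0.01.

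The genes most like each member were ranked by Pearson correlation of log2 level over the 9 arrays, among 2240 genes with an SD of at least 0.2. The arrays share the steps between groups and the replicate numbers, so the values describe and carry no p. A like order of the group means follows from this choice of genes and is no separate result. Over the 9 arrays the members themselves correlated at 0.867 (Gadd45a and Gadd45b), -0.904 (Gadd45a and Gadd45g) and -0.940 (Gadd45b and Gadd45g), and within groups their deviations did at -0.308, -0.452 and -0.011. Closest to Gadd45b were the transcription factor Irf1 (r = 0.98), the vasoactive peptide gene Adm (0.98), Rgs3, a regulator of G protein signalling (0.97), Birc3 (0.97) and Tnfaip2 (0.95). Each had its lowest mean in unstimulated and its highest in knockdown cells, as Adm did at 9.71, 11.44 and 12.29 and Irf1 at 10.87, 12.23 and 12.57. Within groups, the deviations of these genes and of Gadd45b correlated at -0.17 (Adm) to 0.47 (Rgs3 and Birc3).

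Closest to Gadd45a were the kinase Sik1 (r = 0.965), the NF-kB inhibitor Nfkbia (0.965), the zinc finger factor Egr2 (0.963), the chemokine Ccl20 (0.963) and the AP-1 subunit Jun (0.960). Their means, too, were higher after TNF, and differed by 0.08 (Nfkbia and Jun) to 0.23 (Ccl20) with the knockdown. None of these knockdown differences was called, in a comparison where limma called 0.0355% of genes higher. The deviations of these genes and of Gadd45a within groups correlated at 0.69 (Egr2 and Ccl20) to 0.81 (Nfkbia). The same arrays chose the genes, so this is no separate result.

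Closest to Gadd45g were the linker histone gene H1f3 (r = 0.938), the RNA-binding protein gene Mex3b (0.937), Lfng, a modifier of Notch receptors (0.924), the homeobox gene Hoxa3 (0.910) and the Polycomb gene Cbx2 (0.903). All had lower means after TNF and lower ones still in knockdown cells. The means of Lfng were 10.21, 9.61 and 9.43 and those of Hoxa3 7.64, 7.26 and 6.98. Limma called 0 of the 5 in either comparison, and of all genes 0% lower with TNF and 0.102% lower with the knockdown. The paired fit called Lfng (-0.59, paired adjusted p = 0.0341) and Hoxa3 (-0.38, 0.0495) lower after TNF, as 0.0305% of genes. It called Hoxa3 lower with the knockdown (-0.28, 0.0425), as 2.33% of genes. Both calls of Hoxa3 were lost without any 1 number (0.051 to 1), and that of Lfng without number 1 or 3 (1 and 0.344). Genes picked for their likeness to Gadd45g on these arrays share its falls by that choice. Their calls are therefore no separate result, and the shares of all genes beside them measure no enrichment.

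**Figure D5:**
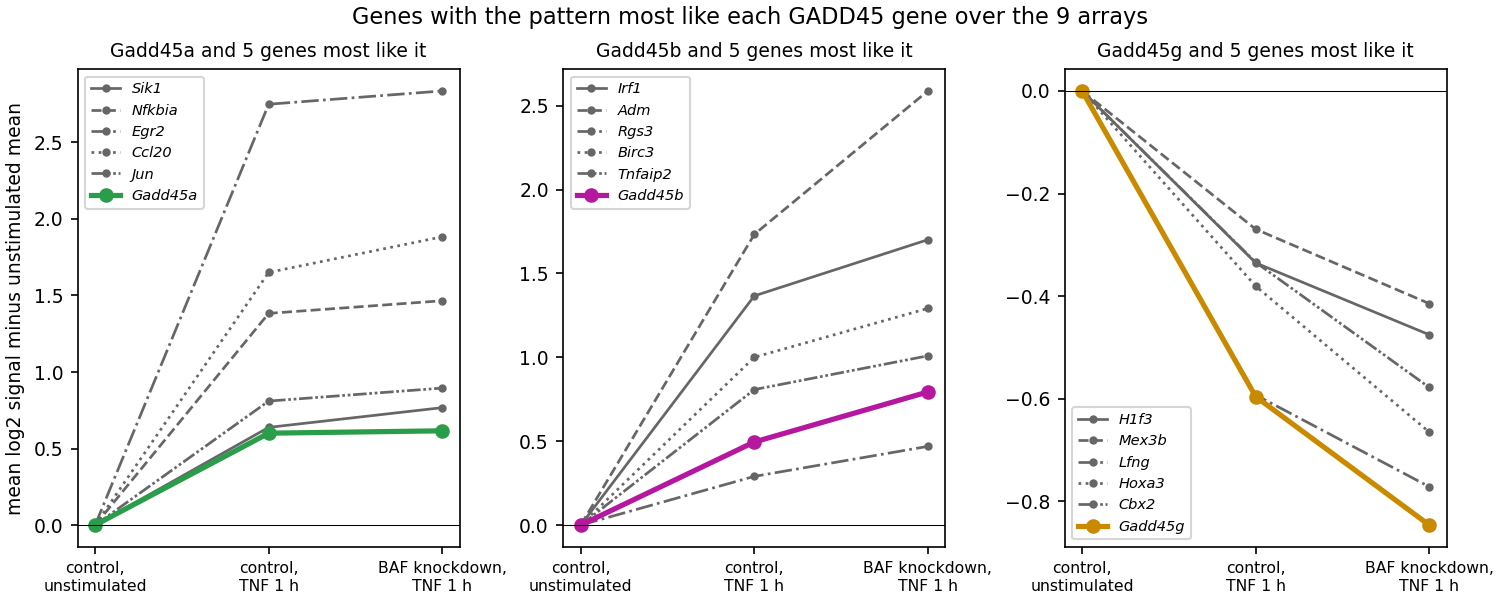
Mean log2 signal minus the unstimulated mean (y axis, a separate scale per panel) in the 3 groups (x axis) for each GADD45 gene, coloured, and the 5 genes whose levels correlated most with it over the 9 arrays, grey. Adm reaches the highest point in the Gadd45b panel, Egr2 in the Gadd45a panel, and no gene in the Gadd45g panel lies as low as Gadd45g itself.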

How the data were processed

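The authors hybridised RNA to Affymetrix mouse Gene 1.0 ST arrays and deposited log2 signals computed by RMA (background correction, quantile normalization and median polish), 1 value per transcript cluster, with replicates not pooled. No source used here gives the build of the probe annotation. Labels and methods name different RNA extractions. Names of the 27024 clusters came from the platform annotation. A cluster with 1 symbol names a gene, and the cluster with the highest mean was used where a gene had several, leaving 19698 genes. Values ran from 3.36 to 14.61 and correlations between arrays from 0.992 to 0.998. Arrays give no read depth, so their number limits the precision.

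The tests came from limma 3.58.1 under R 4.3.3, which fitted the 3 group means to the 9 arrays together (lmFit, eBayes, two-sided, 6 residual degrees of freedom), with Benjamini-Hochberg adjustment over all genes, and called at an adjusted p under 0.05. For induction the methods ask for a difference above 0.35 and Student's test, with pairing not stated, and for dependence on BAF or inhibition by it a difference above 0.3 with no test. Student's test was run here unpaired. Replicates were made on different days, and deviations from the group means were shared by arrays of 1 number (correlations of 0.21 to 0.724, against -0.566 to 0.0111 for other pairs), so numbers were read as pairs. The paired fit adds the replicate number as a block. The fits were also run on simulated data with independent noise and no effect of replicate number. Such data cannot decide between the fits for these arrays.

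The 7 gene lists hold 113 entries, of which 100 were measured. The others were not analysed here. Members and lists were chosen with earlier results of these data known. Genes named are the members, the knockdown targets, called list genes or else the 2 largest differences of a list and comparison, and the 5 genes most like each member. Map3k4 and the genes named for small counts in the paired fit or at an unadjusted p were added after their values were seen.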

Additional observations from a re-analysis of the deposited data

How the results depend on the processing

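Differences are on the log2 scale, with adjusted p from limma. The other settings were pairing by replicate number, the methods' t-test (named there for induction only, here unpaired and run on every comparison), a fit on the compared groups alone, median centring, quantile normalization again, no dim genes, array weights, a trended robust fit, all transcript clusters, and leaving out arrays. Among members, the sign turned only for Gadd45a with the knockdown. Its range was -0.0375 to 0.0764 without single arrays, below 0 without treated control array 3 or knockdown array 1, and in the paired fit -0.00726 without all arrays numbered 1 and -0.0468 without those numbered 3.

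With TNF, Gadd45a passed the test in the paired fit only (0.60, 0.017). Gadd45b lost it only when the paired fit left out number 1 (0.49, 0.436) or 3 (0.49, 0.135). Gadd45g passed under no setting (-0.68 to -0.44).

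With the knockdown, the difference of Gadd45b (0.30) missed the threshold by the methods' t-test (0.419), on the compared groups alone (0.18), without dim genes (0.0501), with a trended robust fit (0.059) and over all transcript clusters (0.0528), as did 0.29 after median centring (0.0715). Without single arrays it ran from 0.28 to 0.32, and in the paired fit 0.32, 0.30 and 0.28 without numbers 1, 2 and 3 were not called. Gadd45g passed only in the paired fit without number 2 (-0.43, 0.0244), the number that went against the others.

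Against unstimulated cells, Gadd45a (0.62) was lost by the t-test (0.53) and on the compared groups alone (0.116), and in the paired fit without number 1 (0.67) or 3 (0.57), with 0.55 to 0.72 without single arrays. Gadd45b (0.79) was lost by the t-test (0.067) and in the paired fit without number 1 (0.81). Gadd45g (-0.85) was lost by the t-test (0.471), on the compared groups alone (0.0682) and in the paired fit without number 1 (-0.85) or 3 (-0.82), with -0.94 to -0.77 without single arrays.

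Of the genes in the lists, 4 were called with TNF, against 8 with pairing, 0 by the t-test, 2 on the compared groups alone, 1 to 5 without single arrays, and 0, 7 and 2 in the paired fit without numbers 1, 2 and 3. With the knockdown 0 were called, against 4 with pairing (4 without number 2 and 1 without number 3), 1 after quantile normalization again, without dim genes or with array weights, and 0 to 1 without single arrays. Cdc25c with TNF ran from -0.29 to 0.0554 without single arrays, above 0 without unstimulated array 3 or treated control array 1 (0.0185). Aurka with the knockdown ran from -0.00516 to 0.25, and was -0.0578 in the paired fit without number 2. The cause of these changes was not tested, though fits that leave out arrays hold fewer samples. The settings for differences between members, for correlations and for paired calls of other genes without 1 number were chosen after seeing the data. With 3 arrays per group, small differences may have gone uncalled. Of the 15 genes most like a member, 12 stayed when no minimum SD was asked. Klhl25 (r = 0.972) then came first for Gadd45a, and Zbtb45 (0.958) and 9930012K11Rik (0.944) came before H1f3 for Gadd45g.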
